A study of Mus musculus with 6 samples.

Results

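Mixl1, Eomes, Mesp1, Gsc, Evx1, Tbx6, Kdr, Lhx1, Snai1 and Pdgfra are 10 genes of the primitive streak and of the mesoderm that leaves it. They were taken as a list of symbols, with every probe set annotated to exactly 1 of them, which gave 14 probe sets of the 45037 on the array (10 of 18193 genes with such a probe set). The arrays measured RNA of mouse embryonic stem cells kept for 2 days in N2B27, a medium without serum that lets such cells take a neural path, with or without knockdown of Geminin (Gmnn), a nuclear protein that restrains the replication licensing factor Cdt1 and also acts on transcription and chromatin. The cells were derivatives of the E14TG2a line of 129P2 background, and all of them, controls included, carried a doxycycline-inducible hairpin against Gmnn in a microRNA backbone (shRNAmir). GemKD cultures received doxycycline, given as 500 ng with no volume, and the controls, called uninduced, carried the same hairpin without it. There were 3 independent experiments, each with 1 GemKD and 1 uninduced array. The hairpin was shRNAmir 11 in experiments 1 and 3 and shRNAmir 9 in the other. Since every GemKD culture and no control had doxycycline, effects of the drug and of the knockdown cannot be told apart.

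The primitive streak is the place where cells of the epiblast leave the epithelium and become mesoderm or endoderm. Nodal, Wnt and BMP signals induce it, and the transcription factors they switch on include the T-box protein Eomes and the homeodomain proteins Mixl1, Gsc and Lhx1. Cells that head for neurectoderm do not normally keep this programme. Some of its genes, such as Lhx1 and Pdgfra, are also made in other cell types. Whether their signals here came from cells on another path was not tested.

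Eomes and Mesp1 were the 2 of the 10 genes with signals above the background limit described below, in GemKD and uninduced cultures alike. The other 8 lay near background. No member probe set passed the test between GemKD and uninduced. Of the genes above background Mesp1 differed most, with a log2 fold change of 0.21 (SE 0.17, n = 3 per group), higher with GemKD in experiments 1 and 2 and lower in experiment 3. Between experiment 3 and experiments 1 and 2, limma called 2 of the 7 tested member probe sets, 1 of Pdgfra and 1 of Eomes, near the 26.4% called of all tested probe sets. The other Eomes probe set went the opposite way, and both calls were lost when certain single arrays were left out.

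Gmnn was at 27.6%, 48.0% and 36.7% of its control in experiments 1, 2 and 3 (two-sided exact permutation p = 0.1, the smallest that 3 arrays against 3 can give). In limma its log2 fold change was -1.44, with an adjusted p of 0.296 without the block and 0.000403 with it. The fit without the block thus did not call the targeted gene, so 0 calls there do not show that members were unchanged. Of 8 neurectoderm markers 7 were above background on all arrays, and so were 5 of 6 pluripotency markers. Sox1 and Pou5f1 averaged 1729 and 7462.5, so RNA typical of both was present. Sox1 averaged 2318 in experiments 1 and 2 and 550 in experiment 3, and Pou5f1 averaged 7508.5 and 7370.5. The number of arrays, 1 per arm in each experiment, limits the precision. The labels call the experiments independent but say nothing more of the cultures behind each array, so p-values measure the spread between these arrays. In RNA of whole cultures, fewer cells of a type and less RNA per cell cannot be told apart.

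Background was read from genes of adult tissues such as liver, pancreas, muscle and blood. Of 35 such genes 30 had a probe set, 38 probe sets in all, and the limit was the 90th percentile of their mean signals, 82.4. Probe sets of Actn3 (437), Krt10 (185), Cela1 (158) and Aqp2 (127) themselves averaged above it. A signal above the limit therefore does not by itself show that a gene was expressed. A probe set counted as above the limit when all 6 arrays exceeded it and as near background when both group means were below it. By this rule 3 of the 14 member probe sets, both of Eomes and that of Mesp1, were above the limit and 11 were near background. All 11 also lay below the median of the mean signals of all probe sets. With lower limits the number above on all 6 arrays grew to 5 at the 30th percentile of all probe sets (20.1), by Tbx6 and 1 probe set of Pdgfra, and to 8 at the median of the adult tissue genes (15.2), by Evx1, Snai1 and another of Pdgfra. Probe sets differ in how well they hybridise, so a dim probe set does not show that a transcript was absent, and levels are not compared between genes.

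**Figure D1:**
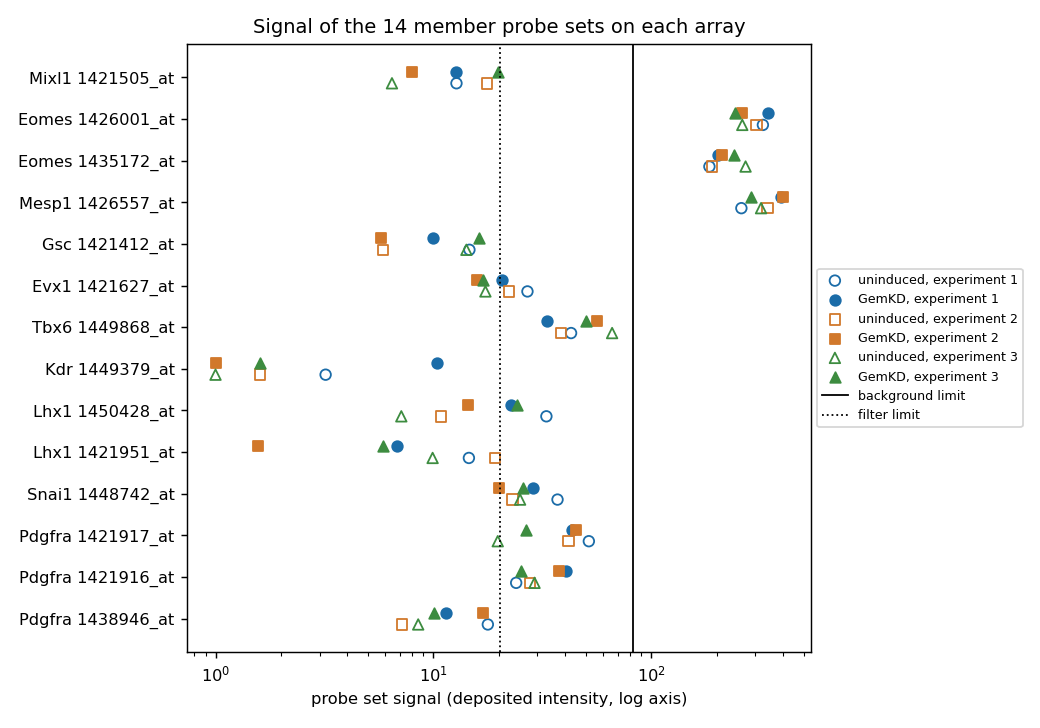
Signals of the 14 member probe sets on the 6 arrays, on a log axis, with GemKD and uninduced arrays of experiments 1, 2 and 3 as separate symbols. Lines give the background limit of 82.4 and the filter limit of 20.1; the probe sets of Eomes and Mesp1 lie above the higher line on every array and the other 11 below it.

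Tests were run on probe sets whose mean signal exceeded 20.1, the 30th percentile over the whole array. This left 7 of the 14, from 5 genes: both of Eomes, that of Mesp1, of Tbx6 and of Snai1, and 2 of Pdgfra. Mixl1, Gsc, Evx1, Kdr and Lhx1 had no tested probe set and are described by their values. Fold changes are differences of log2(signal + 16), a scale that understates the change of dim probe sets. In limma 0 of the 7 were called at an adjusted p under 0.05, and 0 had an unadjusted p under 0.05, where 0.00317% of the 31526 probe sets tested were called and 1.1% had such an unadjusted p. With the experiment as a block, 0 of the 7 were called and 0 had an unadjusted p under 0.05, where 0.00952% of all were called and 4.62% had such an unadjusted p. The adjusted p of each of the 7 was 0.999993 without the block. Of the 7, 4 had a positive log2 fold change, and their median was 0.03, while 55% of all tested probe sets were positive, with a median of 0.01.

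Eomes encodes a T-box factor that cells need to leave the streak and form endoderm and cardiac mesoderm. Its probe set 1426001_at had signals of 325, 304 and 261 in the uninduced arrays of experiments 1, 2 and 3 and 343, 259 and 243 in the GemKD arrays. The groups overlapped, and within each arm the array of experiment 3 was the lowest. GemKD differed from uninduced by a log2 fold change of -0.08 (SE 0.16; 95% interval -0.45 to 0.29 in limma; with the experiment as a block -0.30 to 0.14). A second probe set, 1435172_at, had 184, 189.5 and 270.4 in the uninduced arrays of experiments 1, 2 and 3 and 202, 210.4 and 239 in the GemKD arrays. Again the groups overlapped, but here experiment 3 was the highest of each arm. Its log2 fold change was 0.03 (SE 0.17; 95% interval -0.36 to 0.42 in limma; with the experiment as a block -0.20 to 0.26). With the block, the intervals of both probe sets left out a change of 1.5-fold in either direction.

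Mesp1 encodes a basic helix-loop-helix factor of the earliest cardiac mesoderm and is known as a target of Eomes. Its signals were 259, 341 and 318 in the uninduced arrays of experiments 1, 2 and 3 and 391, 399.6 and 287 in the GemKD arrays, or 306 ± 42.6 against 359 ± 63.0 (mean ± SD, n = 3). The GemKD arrays of experiments 1 and 2 were the highest of the 6, and that of experiment 3 was below its control, so the groups overlapped. The log2 ratios of GemKD to uninduced were 0.57, 0.22 and -0.14 in experiments 1, 2 and 3. GemKD differed from uninduced by a log2 fold change of 0.21 (SE 0.17; 95% interval -0.17 to 0.60 in limma; with the experiment as a block -0.06 to 0.49) and a blocked adjusted p of 0.992. In experiments 1 and 2 alone, with the block, it was 0.39 (limma adjusted p = 0.384).

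The start regions of Mesp1 and Eomes are shown because these were the members above background and one is a known target of the other, and that of Evx1 because a T-box and an E-box match overlap in it. Each runs 5′ to 3′ from 250 bases before to 50 bases after the RefSeq transcript start in GRCm38.p6, and 9 of the 10 members had an entry. Capitals mark matches, on either strand, to the T-box core AGGTGT, the E-box CAGGTG bound by Snail proteins, the TCF site CTTTGA and the FoxH1 site AATNNACA. The T-box core and the E-box overlap where the letters read CAGGTGT.
Mesp1 promoter (chr7:79793541-79793840, minus strand): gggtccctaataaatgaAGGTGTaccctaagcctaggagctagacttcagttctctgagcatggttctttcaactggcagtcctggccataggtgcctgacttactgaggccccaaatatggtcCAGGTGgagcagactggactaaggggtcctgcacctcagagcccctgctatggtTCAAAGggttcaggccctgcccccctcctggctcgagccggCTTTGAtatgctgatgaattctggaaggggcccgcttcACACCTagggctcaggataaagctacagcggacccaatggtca
Eomes promoter (chr9:118477939-118478238, plus strand): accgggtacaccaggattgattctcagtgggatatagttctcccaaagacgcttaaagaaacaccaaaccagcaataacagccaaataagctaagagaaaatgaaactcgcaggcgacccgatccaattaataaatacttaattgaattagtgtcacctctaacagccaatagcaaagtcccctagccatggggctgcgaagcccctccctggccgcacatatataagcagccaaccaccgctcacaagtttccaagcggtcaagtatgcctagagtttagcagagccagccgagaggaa
Evx1 promoter (chr6:52313248-52313547, plus strand): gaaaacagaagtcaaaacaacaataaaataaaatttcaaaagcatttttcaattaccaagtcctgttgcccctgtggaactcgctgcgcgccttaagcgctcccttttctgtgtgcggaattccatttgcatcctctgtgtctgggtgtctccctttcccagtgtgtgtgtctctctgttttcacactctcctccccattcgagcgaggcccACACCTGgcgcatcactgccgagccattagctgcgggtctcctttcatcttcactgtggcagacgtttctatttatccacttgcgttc

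The window of Mesp1 held 2 T-box cores, at 233 bases before and 7 bases after the start, with 1 E-box and 2 TCF sites. That of Eomes held none of the 4 motifs. Of the 9 member promoters 3 held the T-box core (Mesp1, Evx1 and Pdgfra), 3 the E-box (Mesp1, Evx1 and Snai1), 1 the TCF site and 0 the FoxH1 site. Among all 32851 promoters of this length the shares were 13.7% for the T-box core, 20.2% for the E-box, 16% for the TCF site and 12.2% for the FoxH1 site. A match describes the letters of a window and is no measure of binding. The CpG count of the windows ran from 4 in Mesp1 and 5 in Pdgfra to 31 in Lhx1 and 34 in Snai1, with a median of 12 over the members and 7 over all promoters. Eomes had 10, above the median of all promoters.

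Tbx6, the T-box factor of presomitic mesoderm, had signals of 42.8, 38.5 and 66.0 in the uninduced arrays of experiments 1, 2 and 3 and 33.3, 56.0 and 50.1 in the GemKD arrays. All were under the background limit and the groups overlapped, with the highest value in the control of experiment 3. The log2 ratios of -0.25, 0.40 and -0.31 had the opposite sign in experiment 2. Between GemKD and uninduced the log2 fold change came to -0.05 (SE 0.22; 95% interval -0.56 to 0.45 in limma; with the experiment as a block -0.44 to 0.33).

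The homeodomain factors were all below the filter. Mixl1, a factor of nascent mesoderm and endoderm, had 12.8, 17.6 and 6.45 in the uninduced arrays of experiments 1, 2 and 3 and 12.6, 7.99 and 19.8 in the GemKD arrays. No array reached the filter limit, and the arms were in opposite order in experiments 2 and 3. Gsc, a factor of the organizer, ranged from 5.74 to 16.2 over the 6 arrays with overlapping groups. Evx1, a factor of the posterior streak, had 27.0, 22.2 and 17.3 in the uninduced arrays of experiments 1, 2 and 3 and 20.6, 15.8 and 16.9 in the GemKD arrays. It was lower with GemKD in each experiment, by log2 ratios of -0.23, -0.27 and -0.02, but the groups overlapped.

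Lhx1, a LIM homeodomain factor of the anterior streak and later of kidney and neurons, was read by 2 probe sets that went opposite ways. Probe set 1421951_at had 14.5, 19.1 and 9.91 in the uninduced arrays of experiments 1, 2 and 3 and 6.80, 1.57 and 5.86 in the GemKD arrays. It was the 1 of the 14 member probe sets whose groups did not overlap, and it was under the filter limit on every array. Among tested probe sets, which leave it out, groups did not overlap in 0 of the 7 members and in 5.09% of all. In a fit without the filter its log2 difference was -0.56, with an adjusted p of 0.968 with the block (unadjusted 0.0176) in limma. Probe set 1450428_at had 33.0, 10.8 and 7.12 in the uninduced arrays of experiments 1, 2 and 3 and 22.6, 14.4 and 24.2 in the GemKD arrays. It was higher with GemKD in experiments 2 and 3 and lower in experiment 1, and its log2 difference was 0.21.

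Snai1, the zinc finger repressor of Cdh1 that moves cells out of the epithelium, had 37.1, 23.1 and 25.0 in the uninduced arrays of experiments 1, 2 and 3 and 28.5, 19.98 and 25.7 in the GemKD arrays. The control of experiment 1 was the highest, and the groups overlapped. Between GemKD and uninduced the log2 fold change came to -0.12 (SE 0.18; 95% interval -0.54 to 0.30 in limma; with the experiment as a block -0.51 to 0.28).

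Kdr, a VEGF receptor of the mesoderm that gives rise to blood and vessels, had 3.20, 1.6 and 1 in the uninduced arrays of experiments 1, 2 and 3 and 10.4, 1 and 1.6 in the GemKD arrays. The groups overlapped, and 2 of the 6 values were exactly 1. Of 8 markers of endothelium and blood 1, Tek, was above the limit on every array. The summed signal of the 8 was 376 to 399.7 in GemKD and 383 to 412 in uninduced arrays.

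Pdgfra, the PDGF receptor of paraxial mesoderm and of primitive endoderm, had 3 probe sets, all near background. Probe set 1421917_at had 51.6, 41.7 and 19.7 in the uninduced arrays of experiments 1, 2 and 3 and 43.3, 45.1 and 26.5 in the GemKD arrays. The arms overlapped and both arrays of experiment 3 were the lowest. Between GemKD and uninduced the log2 fold change came to 0.05 (SE 0.27; 95% interval -0.57 to 0.67 in limma; with the experiment as a block -0.32 to 0.42). Probe set 1421916_at had 24.0, 27.7 and 29.1 in the uninduced arrays of experiments 1, 2 and 3 and 40.4, 37.7 and 25.2 in the GemKD arrays. Its GemKD arrays were the highest in experiments 1 and 2, and its log2 ratios were 0.50, 0.30 and -0.13 in experiments 1, 2 and 3. Between GemKD and uninduced the log2 fold change came to 0.22 (SE 0.17; 95% interval -0.18 to 0.62 in limma; with the experiment as a block -0.19 to 0.63). The third, 1438946_at, ranged from 7.17 to 17.8. Of 8 markers of primitive and definitive endoderm 2, Sox7 and Dab2, were above the limit on every array, and Gata4, Gata6, Foxa2 and Afp were near background. Their summed signal ran from 647 to 703 in GemKD and from 527 to 836 in uninduced arrays, and its part in the values of Pdgfra was not tested.

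**Figure D2:**
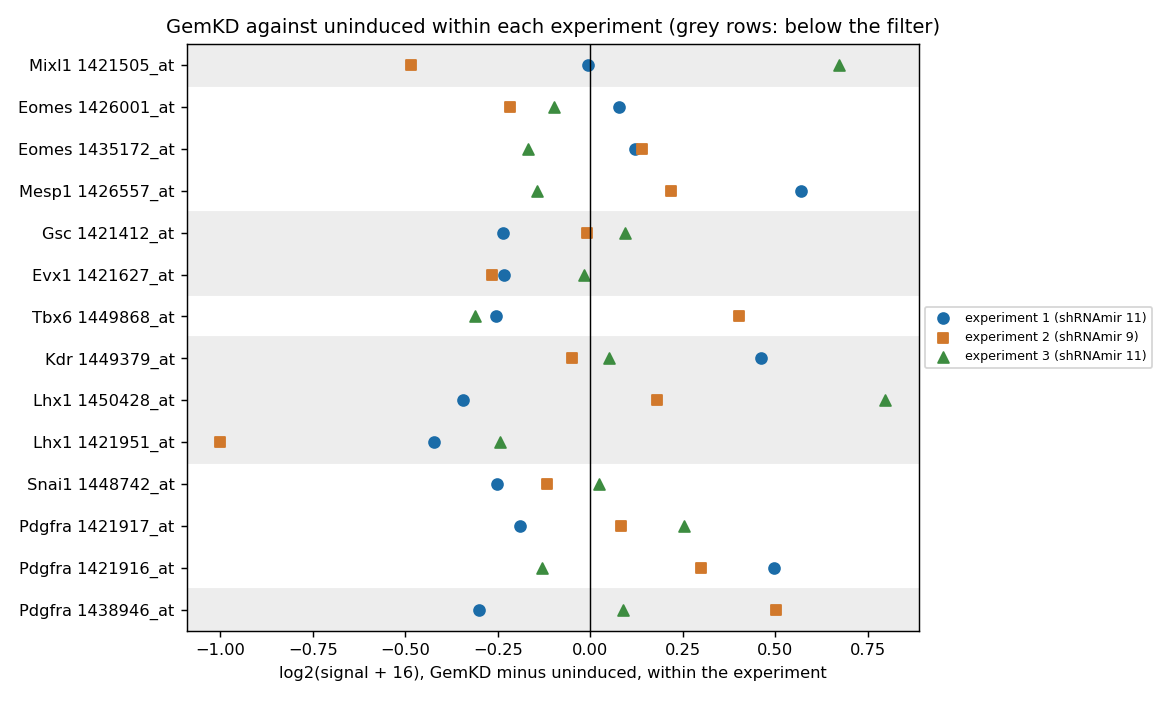
Log2 ratio of GemKD to uninduced within experiments 1, 2 and 3 for the 14 member probe sets, each point from 1 pair of arrays. Evx1 and Lhx1 1421951_at have all 3 points below 0, and the other 12 probe sets have points on both sides.

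Within experiments, 5 member probe sets were higher with GemKD and 9 lower in experiment 1, and 7 were higher and 7 lower in each of the others. A limit of 1.5-fold was applied to the log2 ratios, on the scale of the fold changes above, which understates the change of dim probe sets. Signals of some dim members differed by more without passing, such as those of Kdr in experiment 1 (10.4 in GemKD, 3.2 in uninduced). Past 1.5-fold on this scale, in either direction, were 0 of the 14 in experiment 1, where 3.91% of all probe sets were. In experiment 2 it was 1, Lhx1 by 1421951_at at a log2 ratio of -1.0, where 4.66% of all were. In experiment 3 it was 2, Mixl1 at 0.67 and Lhx1 by 1450428_at at 0.80, where 8.19% of all were. All 3 were below the filter. Evx1 and Lhx1 by 1421951_at had the same sign in all 3 experiments, and 0 of the 7 tested probe sets did, where 24% of all tested probe sets did.

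The use of a second hairpin asks whether a response belongs to the knockdown or to 1 hairpin sequence. In limma, 0 of the 7 tested member probe sets had a different GemKD response with shRNAmir 9 than with shRNAmir 11, and 0 had an unadjusted p under 0.05, where 0.336% of all tested probe sets were called and 4.32% had such an unadjusted p. Tbx6 differed most, by 0.68 on the log2 scale (shRNAmir 9 minus 11, 95% interval -0.07 to 1.44). For Mesp1 the difference was 0.01 (-0.50 to 0.52). These intervals are too wide to show that the hairpins acted alike, and with shRNAmir 9 in 1 experiment, hairpin and experiment cannot be told apart.

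**Figure D3:**
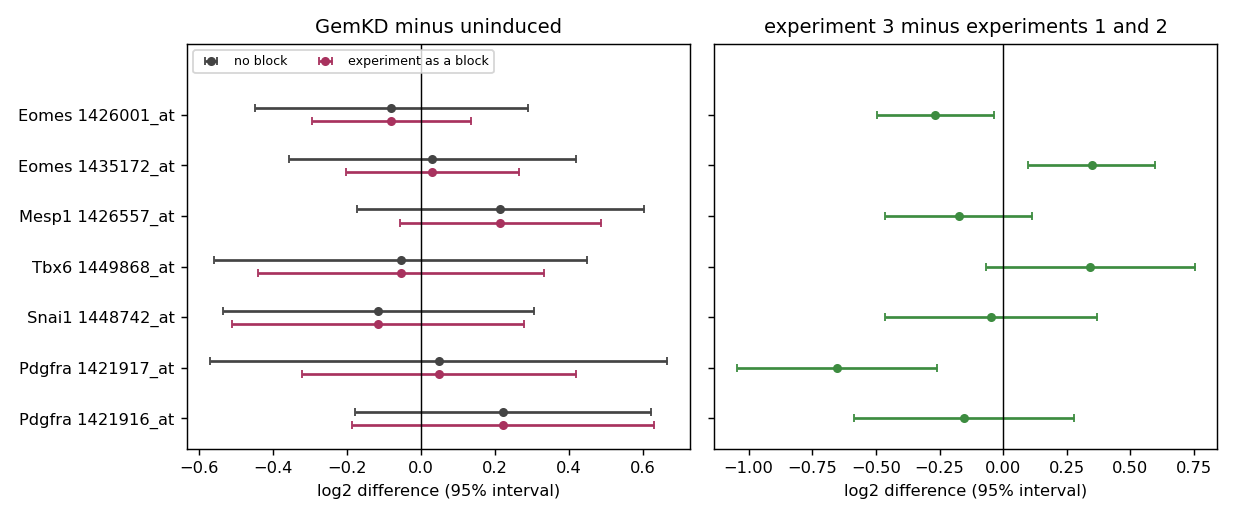
Log2 differences with 95% limma intervals of the 7 tested member probe sets: GemKD minus uninduced, in the fit with no block and in the blocked one, and experiment 3 minus experiments 1 and 2. The intervals of the GemKD difference all include 0, and those of the difference between experiments do not for both Eomes probe sets and Pdgfra 1421917_at.

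Experiment 3 was compared with experiments 1 and 2 because its arrays stood apart in both arms. That choice was made with earlier results of these same arrays known, and the p-values do not account for it. The fit sets 2 arrays of 1 experiment against 4 of 2 experiments, and arrays of an experiment deviate together, so experiment 3 is a single experiment and all adjusted p-values and calls of this comparison, here and for the gene lists, are about these arrays and not about repeated experiments. The 2 called members of 7 are close to the share of all tested probe sets, 26.4%, and say nothing particular about the members. Pdgfra by 1421917_at was lower in experiment 3, at a mean signal of 23.1 against 45.4 (log2 difference -0.65, SE 0.18, limma adjusted p = 0.0194). The call was lost without the uninduced array of experiment 1 (adjusted p = 0.0848) or of experiment 3 (adjusted p = 0.142), and Pdgfra by 1421916_at had -0.15 (SE 0.20, limma adjusted p = 0.61). Fibroblast markers, of cells that also make Pdgfra, summed to 722 to 788 in experiment 3 and to 1341 to 1529 in experiments 1 and 2, with 4 of 7 above the limit on all arrays. Of the 7, 4 were called lower (Col1a1, Col1a2, Col3a1 and Postn), Thy1 was called higher (0.66), and Dcn (-0.17) and Lum (-0.26) did not pass. Their part in the Pdgfra values was not tested.

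Eomes by 1435172_at was higher in experiment 3, at 255 against 197 (log2 difference 0.35, SE 0.11, limma adjusted p = 0.0416). The other Eomes probe set was at 252 against 308 and did not pass (-0.27, SE 0.10, limma adjusted p = 0.0829), so the direction for Eomes depended on the probe set. The call was lost without the GemKD array of experiment 1 (adjusted p = 0.0682), without the uninduced array of experiment 1 (0.133), 2 (0.121) or 3 (0.308), without the filter (0.0811) and without the intensity trend (0.0899). Mesp1 had -0.17 (SE 0.13, limma adjusted p = 0.364) and was called lower without the uninduced array of experiment 3 (-0.44, adjusted p = 0.0356). Tbx6 (0.34, SE 0.19) and Snai1 (-0.05, SE 0.19) did not pass. Markers of cell state were mixed in the same comparison, where 26.4% of all tested probe sets were called. Of 8 neurectoderm markers 5 were called lower, Pax6 (-2.24) the furthest, and 1 higher, Sox3 (0.35), while Nes (0.10) and Hes5 (-0.26) did not pass. Of 6 pluripotency markers 4 were called lower, Nanog (-2.61) the furthest, and Pou5f1 (-0.03) and Esrrb (-0.02) did not pass. All 4 markers of the primed epiblast were called higher, Fgf5 (2.17) the furthest.

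The genes that signal to the members were taken from lists, each gene by its brightest probe set. Most inducers of the streak, 18 of 22, were above the limit on every array. Nodal, the ligand that starts the programme, had 1055, 1275 and 1114 in the uninduced arrays of experiments 1, 2 and 3 and 1212, 1140.3 and 1164 in the GemKD arrays. Its groups overlapped, with a log2 fold change of 0.03 (SE 0.09). Its coreceptor Tdgf1 and the nuclear partner Foxh1 averaged 4815 and 2373. The 3 inducers near background were Wnt3, Wnt3a and Fgf8, ligands made in and around the streak. Of 19 tested inducers 0 passed in limma in either direction, with or without the block. With an unadjusted p under 0.05 there were 0 without the block and 2 with it, against 1.1% and 4.62% of all tested probe sets. Their median log2 fold change was 0.02 against 0.01 over all. The largest differences were those of the ligands Wnt8a (0.33, SE 0.71) and Fgf4 (-0.30, SE 0.17) and of Furin, which cleaves Nodal (0.20, SE 0.14). With the block their SEs were 0.11, 0.08 and 0.10. In experiments 1, 2 and 3 the log2 ratios were 0.28, 0.36 and 0.36 for Wnt8a and -0.21, -0.55 and -0.13 for Fgf4. Those of Furin were 0.03, 0.31 and 0.27. The same sign in all 3 experiments was seen in 24% of all tested probe sets.

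Of 9 antagonists of these signals 7 were tested, and 0 passed in limma with the block or without it. With an unadjusted p under 0.05 there were 1 without the block and 4 with it, against 1.1% and 4.62% of all tested probe sets. Their median log2 fold change was 0.30, and 6 of the 7 were positive. Lefty1, an inhibitor and target of Nodal, had 426, 425 and 565 in the uninduced arrays of experiments 1, 2 and 3 and 949.8, 792 and 734 in the GemKD arrays. Every GemKD array was above every control, while groups did not overlap in 5.09% of all tested probe sets. The log2 fold change was 0.79 (SE 0.15), with a limma adjusted p of 0.999993 without the block and 0.18 with it. With 1 probe set per gene, which leaves 14185 tests, the blocked adjusted p in limma was 0.0201, in a fit chosen after seeing the data. Chrd, a BMP antagonist of the organizer that was near background here, had 0.55 (SE 0.33) with ratios of -0.36, 0.85 and 1.15, and Axin2, a feedback inhibitor of Wnt, had 0.35 (SE 0.23). With the block these SEs were 0.24 and 0.13.

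Of 24 other factors of streak and mesoderm 15 were near background, among them Msgn1, Sp5, Cdx1, Cdx2, Cdx4, Foxc1 and Meox1. The 5 above the limit on every array were Mesp2, Tbx3, Tcf15, Etv2 and Tal1. Of 18 tested 0 passed in limma in either direction, with or without the block. With an unadjusted p under 0.05 there were 0 without the block and 1 with it, against 1.1% and 4.62% of all tested probe sets. Of the 18, 10 were positive, with a median of 0.02. Mesp2, a relative of Mesp1 in somite formation, had 151, 138 and 144 in the uninduced arrays of experiments 1, 2 and 3 and 136, 152 and 127 in the GemKD arrays. The groups overlapped, and the log2 fold change of -0.06 (SE 0.12) had the opposite sign to that of Mesp1. The largest differences were those of Hoxb1, a Hox gene of early mesoderm and hindbrain (0.57, SE 1.08), Tbx3, also a factor of naive pluripotent cells (0.20, SE 0.22), and Foxf1, a factor of lateral mesoderm (-0.18, SE 0.15). With the block their SEs were 0.15, 0.11 and 0.17. Each kept its sign in all 3 experiments, as 24% of all tested probe sets did. Hoxb1 had log2 ratios of 0.48, 0.94 and 0.29 and a blocked limma adjusted p of 0.992. Its signals in experiment 3 were 8.88 with GemKD and 4.32 in the control. In experiment 3 against 1 and 2 limma called 1 higher, Etv2 of blood and vessel progenitors (1.04), and 3 lower, Hoxb1 (-3.13), Tcf15 (-1.22) and Tbx3 (-0.50). The share of all tested probe sets called there was 26.4%.

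**Figure D4:**
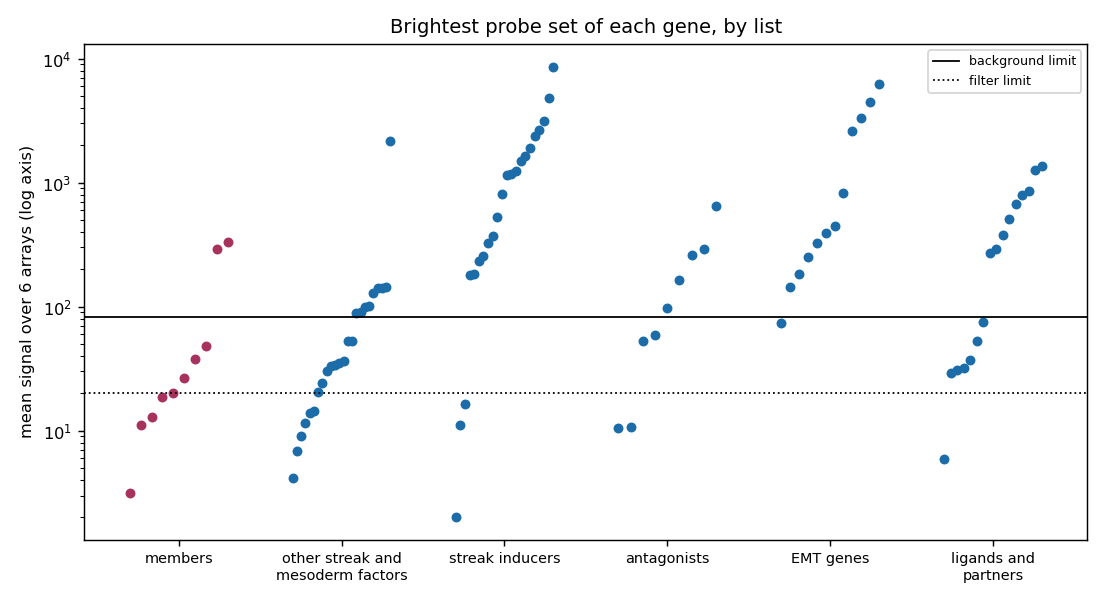
Mean signal over the 6 arrays, on a log axis, of the brightest probe set of each gene among the members and in the pathway lists. Lines give the background limit of 82.4 and the filter limit of 20.1; 2 of the 10 members lie above the higher line.

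Of 12 genes of the epithelial to mesenchymal transition, the process that Snai1 drives, 10 were above the limit on every array. Cdh1, the epithelial cadherin that Snai1 represses, had 5611, 5997 and 6973 in the uninduced arrays of experiments 1, 2 and 3 and 5209, 5773 and 7610.3 in the GemKD arrays. It was bright throughout, and its groups overlapped. Of the 12, all tested, 0 passed between GemKD and uninduced in limma with or without the block. With an unadjusted p under 0.05 there were 0 without the block and 1 with it, against 1.1% and 4.62% of all tested probe sets. Positive were 6, with a median of 0.02. The largest differences were those of the mesenchymal cadherin Cdh2 (0.28, SE 0.34) and of the repressors Zeb2 (0.23, SE 0.17) and Zeb1 (0.22, SE 0.93). With the block their SEs were 0.08, 0.12 and 0.11. Cdh2 had log2 ratios of 0.18, 0.41 and 0.25 in experiments 1, 2 and 3 and a blocked limma adjusted p of 0.992. Zeb1 was also higher with GemKD in each experiment, and Zeb2 was lower in experiment 1. In experiment 3 limma called 3 higher, Cdh1 (0.37) among them, and 6 lower, with Zeb1 (-2.73) and Cdh2 (-0.98) the furthest. The share of all tested probe sets called there was 26.4%.

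Of 16 ligands, related receptors and partners of the members 9 were above the limit on every array, among them the PDGF ligand Pdgfa, the VEGF ligands Vegfa, Vegfb and Vegfc, and Ldb1, the cofactor of LIM homeodomain proteins such as Lhx1. The receptors Flt1 and Pdgfrb were near background, as Kdr and Pdgfra were. Of 15 tested limma called 0 in either fit. With an unadjusted p under 0.05 there were 0 without the block and 3 with it, against 1.1% and 4.62% of all tested probe sets. Positive were 9, with a median of 0.08. The largest differences were those of Vegfa (0.33, SE 0.30), Vegfb (0.28, SE 0.17) and Ldb1 (0.21, SE 0.18). With the block their SEs were 0.13, 0.10 and 0.10. In experiment 3, 7 were called lower and 0 higher, Pdgfa the furthest, at a mean signal of 572 against 1618 in experiments 1 and 2 (log2 difference -1.47). The share of all tested probe sets called there was 26.4%.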

How the data were processed

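RNA of 6 cultures was hybridised to Affymetrix mouse expression arrays, and the deposited values are linear signal intensities per probe set, as the authors gave them; which software and normalization made them is not given in the sources used here. Gene symbols came from the annotation of the platform: 34945 carried 1 symbol (18193 genes), 932 several and 9160 none, and 0 symbols changed through RefSeq's gene table (204 identifiers were not in it). Values were taken as log2(signal + 16), without further normalization, and probe sets with a mean above the 30th percentile were fitted with limma 3.58.1 (intensity trend, Benjamini-Hochberg adjustment, R 4.3.3), over all 31526 such probe sets. The main design had no block, and the blocked fit was planned as its alternative.

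The labels pair the arrays, since a number stands for 1 experiment, run with a control of the same line, and the deviations of paired arrays correlated at 0.43, 0.38 and 0.66 in experiments 1, 2 and 3. The fit with the experiment as a block is therefore given beside the other. Alternatives were another pseudocount (1, 64), no filter or the 50th percentile, quantile normalization, no intensity trend, the brightest probe set of each gene, other background limits and leaving out each array or experiment.

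The members and lists were chosen with earlier results of these data known. Genes were named by rule: all members, Gmnn, and from each list the 3 tested genes with the largest GemKD difference and any called; markers and other genes named as near or above background, or for experiment 3, were chosen after their values were seen. Promoter windows are from RefSeq, GRCm38.p6. The fits were tested on simulated data.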

Additional observations from a re-analysis of the deposited data

Results flagged for a closer look

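Kdr had a log2 ratio of GemKD to uninduced of -0.05 in experiment 2, with shRNAmir 9, and of 0.46 and 0.05 in experiments 1 and 3, with shRNAmir 11. It is listed because the ratios of the hairpins had opposite signs. The difference was not tested, since Kdr was below the filter, and its signals ranged from 1 to 10.4.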

How the results depend on the processing

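The count of member probe sets called between GemKD and uninduced was 0 under every alternative run, including the fit with the experiment as a block, in which pairing changed no call of a member. Over all probe sets that count was 1, against 3 with the block, 0 without the intensity trend, 5 with the block and 1 probe set per gene (an alternative chosen after seeing the data), 13 with the block in experiments 1 and 2 alone, and 0 to 1 without 1 array or 1 experiment. Signs of small member differences were not stable. Eomes 1435172_at was -0.0015 after quantile normalization, and in experiments 1 and 2 alone Pdgfra 1421917_at was -0.054 and Tbx6 0.073. Without 1 array or 1 whole experiment the log2 fold changes ran from -0.22 to 0.014 for Eomes 1426001_at, -0.061 to 0.20 for Eomes 1435172_at, -0.22 to 0.24 for Pdgfra 1421917_at, -0.20 to 0.020 for Snai1 and -0.28 to 0.12 for Tbx6, while Mesp1 (0.04 to 0.39) and Pdgfra 1421916_at (0.08 to 0.40) kept their sign. Between experiments, 1 member probe set in place of 2 was called without the filter, with the filter at the 50th percentile, with the brightest probe set of each gene and without the trend, and 0 to 2 without single arrays. The count over all probe sets was 4822 with the brightest probe set, 4261 without the trend and 6294 to 7425 without single arrays. In that comparison Mesp1 ran from -0.44 to 0.095, Pdgfra 1421916_at from -0.42 to 0.11 and Snai1 from -0.15 to 0.058 without single arrays. The hairpin difference of Snai1 was 0.0064 at a pseudocount of 64 and -0.0035 at 16. The probe sets above background were 8 or 5 under the lower limits and 3 at the 95th percentile of the adult tissue genes. Fewer tests or arrays are part of several of these settings; otherwise the cause was not tested. Most members lie where signal is close to background, which limits what a ratio can show.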

Other observations

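Among 10435 genes whose brightest probe set averaged above the background limit, those whose log2 signal followed Eomes (1426001_at) most closely over the 6 arrays were Emp3 (Pearson r 0.976), Churc1 (0.970) and Repin1 (0.969). Those most like Mesp1 were Zdhhc8 (0.994), Ehmt2 (0.989) and 4933439C10Rik (0.986). With 6 arrays, 71 genes had an r over 0.9 with Eomes and 51 with Mesp1, so these values only describe the arrays, which also share the difference between experiments. Eomes 1426001_at had its highest array in experiment 1 and its lowest in experiment 3, and 1435172_at the reverse.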
